A study of Homo sapiens with 6 samples.

Results

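NRF2 (gene NFE2L2), its inhibitor KEAP1 and 7 genes known as NRF2 targets, NQO1, HMOX1, GCLC, GCLM, TXNRD1, SRXN1 and SQSTM1, were followed after knockdown of GDF15 in thyroid cancer cells. These 9 genes were taken by gene symbol from a table of 34738 genes, and all 9 passed the filter of a mean FPKM of at least 1 that left 11867 genes to test. FPKM, the level used here, corrects the fragments of a gene for the length of its transcripts and for how many fragments the library mapped. The study silenced GDF15, which encodes a secreted stress cytokine of the TGF-β family, to ask how transcription in the thyroid cancer cells changes when GDF15 is reduced. In the siGDF15 group the cells were transfected with an siRNA against GDF15 by a cationic lipid reagent, and the NC group was the control, with 3 libraries in each group. The labels name KHM-5M, a human thyroid cancer cell line, for all 6 libraries, although the study's own description of the sequencing names another line, TPC-1. The sources call the NC cells a blank control in one place and a negative control in another, and if the NC cells received no siRNA, the effects of transfection and of GDF15 knockdown cannot be told apart. The study lists only 1 siRNA against GDF15, so effects of that siRNA on other transcripts cannot be told apart from those of GDF15 knockdown in either case. All values come from 1 cell line, and a p-value here measures the spread between libraries of that line.

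NRF2 is a transcription factor that binds antioxidant response elements together with small MAF proteins and switches on genes for detoxification, glutathione synthesis and thiol reduction. In unstressed cells KEAP1 holds NRF2 and presents it to a CUL3 ubiquitin ligase for degradation. Oxidants and electrophiles modify cysteines of KEAP1, NRF2 then escapes degradation, and its activity is therefore set largely at the protein level, which RNA sequencing does not measure. SQSTM1 (p62) is both a target of NRF2 and a protein that can trap KEAP1.

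The promoter sequences of the members were searched for the core of the antioxidant response element, TGACNNNGC, because this is the sequence that NRF2 binds. RefSeq windows of 300 bases, from 250 before to 50 after a transcript start (GRCh38), were found for 8 of the 9 members, 13 windows in all, and not for HMOX1. Of the 13 windows 4 held the core on either strand, and they belonged to 3 members, KEAP1, GCLM and TXNRD1. Among all 35116 RefSeq windows the core was present in 13.3%. The related AP-1 motif TGANTCA was in 0 of the 13 windows and in 7.71% of all windows, and no core match overlapped one. The 120 bases before the start of each of the 4 windows are shown 5′ to 3′ on the strand of the gene, with the core matches in capitals. They lie at chr19:10502772-10502891 (minus strand) for KEAP1, chr1:93909431-93909550 (minus strand) for GCLM, and chr12:104215659-104215778 and chr12:104286912-104287031 (plus strand) for the upstream and downstream starts of TXNRD1.
KEAP1: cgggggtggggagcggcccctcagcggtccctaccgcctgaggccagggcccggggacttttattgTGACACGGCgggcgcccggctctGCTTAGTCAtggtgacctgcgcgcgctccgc
GCLM: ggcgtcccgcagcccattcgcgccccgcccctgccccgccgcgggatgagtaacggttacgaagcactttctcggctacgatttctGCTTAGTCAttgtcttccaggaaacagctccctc
TXNRD1 upstream start: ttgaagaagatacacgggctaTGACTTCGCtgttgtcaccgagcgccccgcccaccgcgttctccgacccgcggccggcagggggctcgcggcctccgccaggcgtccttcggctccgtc
TXNRD1 downstream start: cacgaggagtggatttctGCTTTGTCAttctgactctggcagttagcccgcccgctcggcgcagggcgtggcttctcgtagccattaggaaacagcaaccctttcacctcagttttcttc
KEAP1 and GCLM carried the same 9 letters, TGACTAAGC on the strand opposite to the gene, 31 and 34 bases before the start. Those 9 letters occurred in 36 of the 35116 windows (0.103%). KEAP1 held a further match, TGACACGGC, 54 bases before its start, and the upstream window of TXNRD1 held TGACGGAGC across its start. KEAP1 and GCLM were lower and TXNRD1 was higher in siGDF15, as described for each gene. A match is a description of the letters, and a window without a match says nothing about binding elsewhere.

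GDF15 itself was measured first, as a check of the labels. Its FPKM was 22.4, 19.3 and 23.1 in NC and 10.8, 10.5 and 10.7 in siGDF15. All 3 siGDF15 libraries were below all 3 NC libraries, with a log2 fold change of -0.92 (SE 0.079, adjusted p = 2.4e-05). All adjusted p-values given here are from edgeR's two-sided quasi-likelihood test over the 11867 genes with Benjamini-Hochberg adjustment, and genes with an adjusted p-value under 0.05 are referred to as called.

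Across the 9 genes 4 were called higher in siGDF15 (NQO1, HMOX1, SQSTM1 and TXNRD1), 3 were called lower (GCLM, KEAP1 and SRXN1) and 2 were not called (NFE2L2 and GCLC). Of all tested genes 61.4% were called between siGDF15 and NC, 30.0% higher and 31.4% lower. The share of the 9 genes that was called, 7 of 9, is therefore read against that background. None of the 9 passed the study's further threshold for differential expression, an absolute log2 fold change of 1 or more, which 7.81% of tested genes passed with the adjusted p-value, and none passed it under any of the 16 alternatives. GDF15 itself, at -0.92, fell short of that threshold in the main fit. The libraries of the groups did not overlap for 7 of 9 members on CPM, the count per library total after TMM scaling (TMM sets a factor per library so that most genes are level), against 67.9% of tested genes, and for 9 of 9 on FPKM, against 68.4%. The median log2 fold change of the members was -0.07, and that of all tested genes was 0.0026. In bulk RNA a change in the share of some cells and a change in RNA per cell cannot be told apart.

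**Figure D1:**
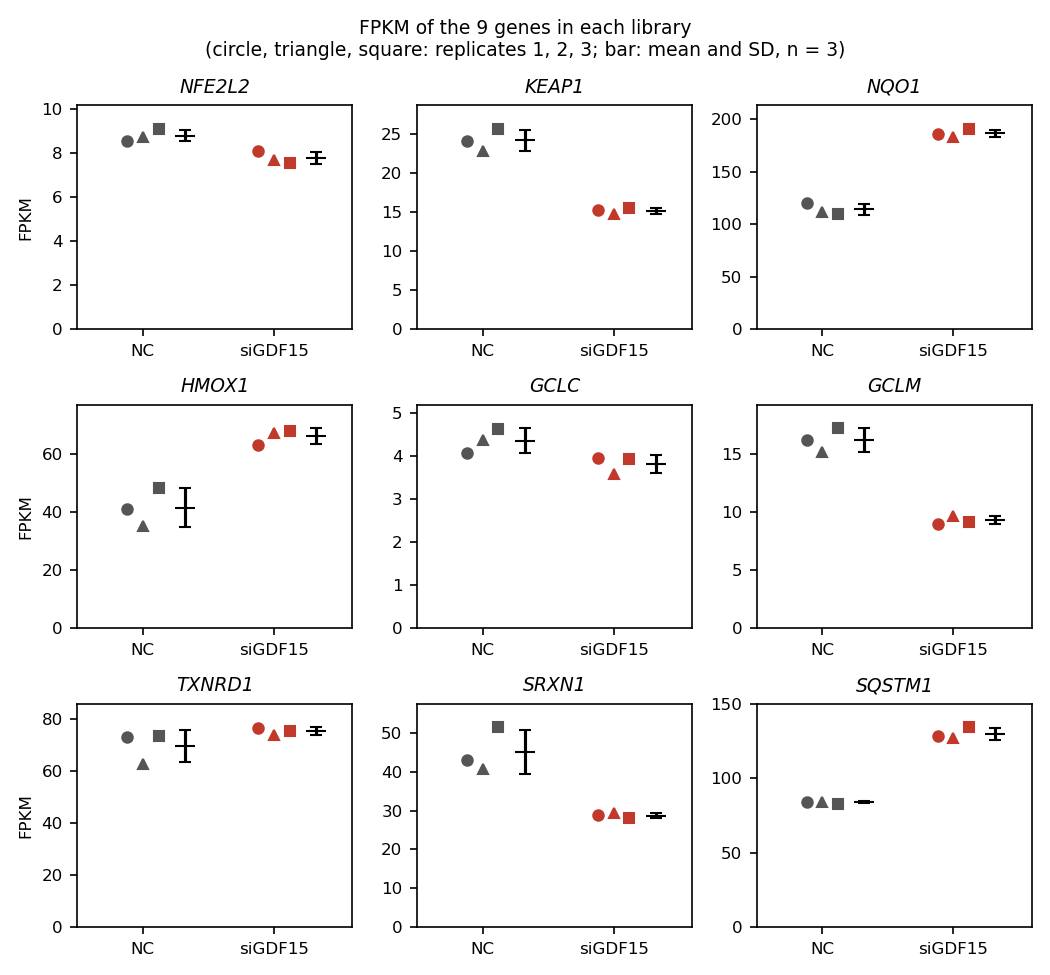
FPKM of each of the 9 genes (y axis, from 0) in the NC (grey) and siGDF15 (red) libraries, with a circle, triangle and square for replicates 1, 2 and 3 and a bar for the mean and SD (n = 3). NQO1, HMOX1 and SQSTM1 sit higher and KEAP1, GCLM and SRXN1 lower in all 3 siGDF15 libraries, while NFE2L2, GCLC and TXNRD1 differ little.

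The regulators did not move together. NFE2L2 (ENSG00000116044, chromosome 2, 177218667 to 177392697, minus strand), which encodes NRF2, had an FPKM of 8.56, 8.76 and 9.08 in NC and 8.09, 7.70 and 7.58 in siGDF15. Its FPKM values did not overlap, but the CPM after TMM did, at 139, 141 and 148 in NC and 140, 136 and 132 in siGDF15. NFE2L2 was not called, with a log2 fold change of -0.07 (SE 0.046, adjusted p = 0.22). Under scaling by the total count without TMM the value was -0.17 and passed the test (adjusted p = 0.012). KEAP1 (ENSG00000079999, chromosome 19, 10486125 to 10503356, minus strand), the adaptor that brings NRF2 to its ubiquitin ligase, had an FPKM of 24.1, 22.9 and 25.6 in NC and 15.3, 14.8 and 15.5 in siGDF15. For KEAP1 the highest siGDF15 library was well below the lowest NC library. The KEAP1 transcript fell by 0.57 on the log2 scale (SE 0.057, adjusted p = 5.4e-05), which is 1.48-fold lower.

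The quinone and heme enzymes rose. NQO1 (ENSG00000181019, chromosome 16, 69706996 to 69726584, minus strand), which reduces quinones to hydroquinones and is a widely used readout of NRF2 activity, had an FPKM of 120, 112 and 110 in NC and 186, 183 and 190 in siGDF15. Every siGDF15 library was above every NC library, and the mean went from 114 ± 5.25 to 186 ± 3.41 (SD, n = 3). NQO1 had the largest log2 fold change of the members, 0.81 (SE 0.047, adjusted p = 2.8e-06), or 1.75-fold higher. HMOX1 (ENSG00000100292, chromosome 22, 35380361 to 35394214, plus strand), which opens heme to biliverdin, iron and carbon monoxide, had an FPKM of 40.9, 35.1 and 48.3 in NC and 62.8, 67.1 and 67.8 in siGDF15. For HMOX1 the NC libraries were widely spread, with a coefficient of variation of 15.9%, the largest of the 9 genes in NC, and still lay below the siGDF15 libraries. HMOX1 was 1.71-fold higher (log2 fold change 0.77, SE 0.11, adjusted p = 0.00035).

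The subunits of glutamate-cysteine ligase, the first enzyme of glutathione synthesis, differed. GCLC (ENSG00000001084, chromosome 6, 53497341 to 53616970, minus strand), the catalytic subunit, had an FPKM of 4.07, 4.36 and 4.63 in NC and 3.94, 3.58 and 3.93 in siGDF15. Its groups were only just apart on FPKM, and they overlapped on CPM after TMM, at 38.1, 40.5 and 43.6 in NC and 39.4, 36.6 and 39.3 in siGDF15. GCLC was not called (log2 fold change -0.08, SE 0.069, adjusted p = 0.31), but it passed without TMM, at -0.19 (adjusted p = 0.044). GCLM (ENSG00000023909, chromosome 1, 93885199 to 93909456, minus strand), the modifier subunit that makes the catalytic subunit more efficient, had an FPKM of 16.2, 15.2 and 17.2 in NC and 9.02, 9.67 and 9.19 in siGDF15. GCLM had the lowest log2 fold change of the members and fell by 0.70 (SE 0.064, adjusted p = 3.3e-05), which is 1.62-fold lower.

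TXNRD1 and SRXN1, the members of the thioredoxin branch, differed as well. TXNRD1 (ENSG00000198431, chromosome 12, 104215779 to 104350307, plus strand), the cytosolic reductase that keeps thioredoxin reduced, had an FPKM of 73.0, 62.5 and 73.4 in NC and 76.5, 73.8 and 75.4 in siGDF15. NC replicates 1 and 3 were close to the siGDF15 libraries and NC replicate 2 was low. TXNRD1 was called 1.16-fold higher (log2 fold change 0.22, SE 0.067, adjusted p = 0.022), and this call was lost in 8 of 16 alternatives, among them each fit without 1 siGDF15 library (adjusted p = 0.066, 0.059 and 0.064 without replicates 1, 2 and 3) and scaling without TMM (log2 fold change 0.11, adjusted p = 0.16). Without NC replicate 2 it was called at a log2 fold change of 0.14 (adjusted p = 0.014). SRXN1 (ENSG00000271303, chromosome 20, 646615 to 653200, minus strand), sulfiredoxin, which restores overoxidized peroxiredoxins, had an FPKM of 43.0, 40.7 and 51.3 in NC and 28.8, 29.3 and 28.0 in siGDF15. Its siGDF15 libraries were close to each other and all below the NC libraries. SRXN1 fell by 0.54 on the log2 scale (SE 0.086, adjusted p = 0.00074), which is 1.46-fold lower.

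SQSTM1 (ENSG00000161011, chromosome 5, 179806398 to 179838078, plus strand), the autophagy receptor p62, had an FPKM of 84.2, 84.2 and 83.0 in NC and 128, 127 and 134 in siGDF15. Its NC libraries agreed closely, with a coefficient of variation of 0.869%, the smallest of the 9 genes, and all 3 siGDF15 libraries were above them. SQSTM1 was 1.67-fold higher (log2 fold change 0.74, SE 0.040, adjusted p = 2e-06), the smallest adjusted p-value among the members. Within NC, replicate 2 had the lowest FPKM for 5 of the 9 genes and replicate 3 the highest for 7 of 9. Within siGDF15, replicate 2 was likewise the lowest for 5 of 9. The same shares over all tested genes were not computed.

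**Figure D2:**
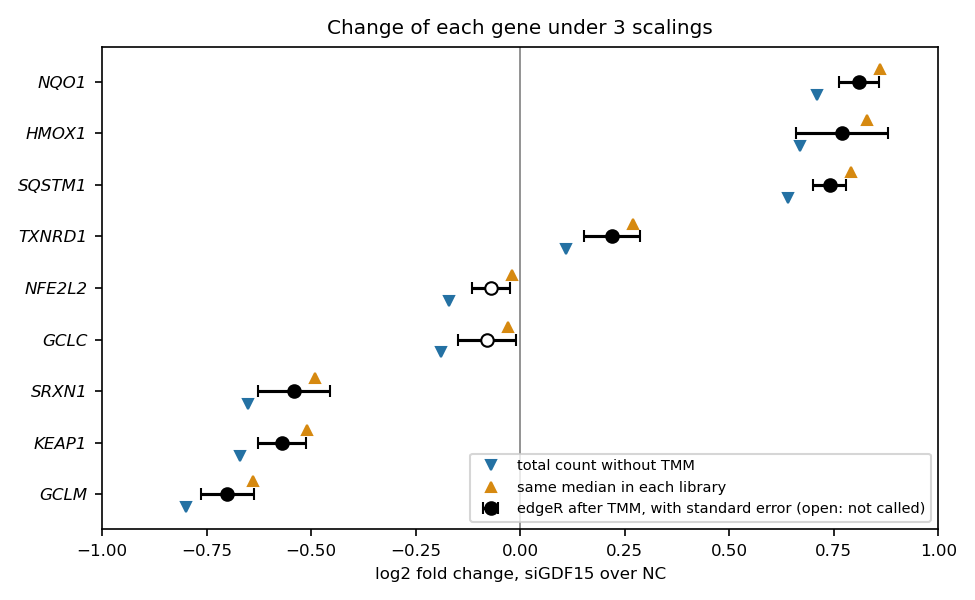
Log2 fold change of siGDF15 over NC (x axis) for the 9 genes, with black circles for edgeR after TMM and its standard error (open where not called) and triangles for total count without TMM (blue, pointing down) and the same median in each library (orange, pointing up). All 9 genes keep their sign under the 3 scalings, and NFE2L2, GCLC and TXNRD1 lie nearest to 0.

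In NC the order of the levels by FPKM was NQO1, SQSTM1, TXNRD1, SRXN1, HMOX1, KEAP1, GCLM, NFE2L2 and GCLC. The mean FPKM ran from 114 for NQO1 to 4.36 for GCLC, and SRXN1 (45.0 ± 5.55) and HMOX1 (41.4 ± 6.60) were the only neighbours whose libraries overlapped. In siGDF15 HMOX1 (65.9 ± 2.71) stood above SRXN1 (28.7 ± 0.640), and the order was otherwise the same, with no neighbours overlapping.

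Ratios of 2 members within a library do not depend on the scaling between libraries. The FPKM of NFE2L2 over that of KEAP1 was 0.355, 0.383 and 0.354 in NC and 0.530, 0.522 and 0.488 in siGDF15, a log2 difference of 0.50 (SE 0.052). The ratio of GCLC to GCLM was 0.252, 0.286 and 0.269 in NC and 0.437, 0.370 and 0.427 in siGDF15, a log2 difference of 0.61 (SE 0.091). The ratio of TXNRD1 to SRXN1 was 1.70, 1.53 and 1.43 in NC and 2.65, 2.52 and 2.69 in siGDF15, a log2 difference of 0.76 (SE 0.078). All 3 ratios were higher in every siGDF15 library than in any NC library. Their denominators, KEAP1, GCLM and SRXN1, are the members called lower, so this is not a separate result from the levels given above. The two-sided exact permutation test gave p = 0.1 for each, and 0.1 after adjustment over the 3 ratios, which is the smallest p that 3 libraries against 3 allow.

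**Figure D3:**
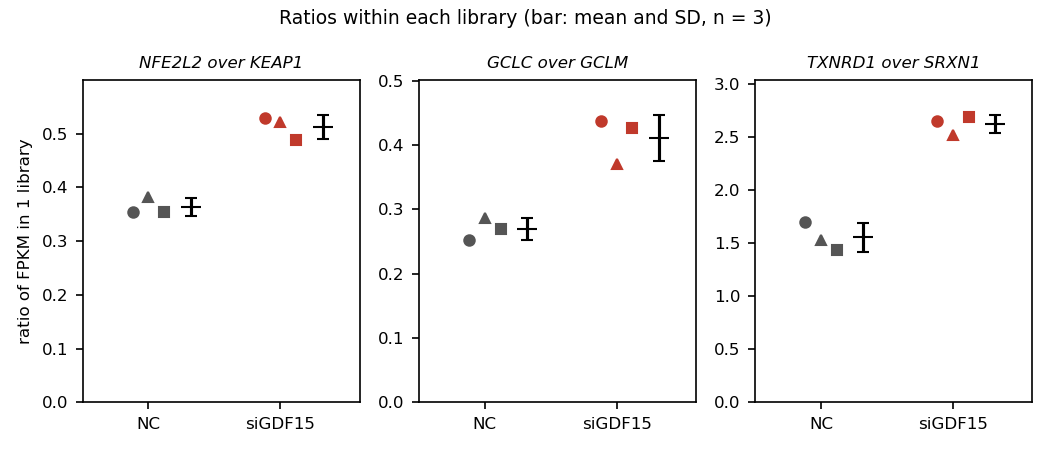
Ratio of the FPKM of 2 genes in the same library (y axis, from 0) for NFE2L2 over KEAP1, GCLC over GCLM and TXNRD1 over SRXN1, in NC (grey) and siGDF15 (red), with a symbol per replicate and a bar for the mean and SD (n = 3). The mean ratio goes from 0.364 to 0.513, from 0.269 to 0.412 and from 1.55 to 2.62.

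Beyond the members, 35 other genes known as NRF2 targets were listed, of which 31 were tested. This list and those that follow were chosen with earlier results of these data known, so their counts are descriptions. Of these 17 were called higher and 4 lower (54.8% and 12.9%, against 30.0% and 31.4% of all tested genes), with a median log2 fold change of 0.34. Without TMM the counts were 15 and 5. Over all tested genes 2701 of 7380 calls (36.6%) were higher without TMM, against 3565 of 7286 (48.9%) with it. ABCC3, an efflux pump for conjugated compounds, had an FPKM of 1.88, 2.37 and 1.69 in NC and 6.24, 6.88 and 6.76 in siGDF15, and was 3.59-fold higher (log2 fold change 1.84, SE 0.12, adjusted p = 4.6e-06). The ferritin light chain FTL rose 2.54-fold (1.35, SE 0.057, adjusted p = 7.9e-07), from 1840 ± 86.5 to 4350 ± 232. TRIM16 (1.01), GPX2 (0.99) and the epoxide hydrolase EPHX1 (0.81) were also called higher, although for GPX2 the FPKM of NC replicate 3 (3.97) was above that of siGDF15 replicate 1 (3.55) and the call was lost without NC replicate 1 or 2 or siGDF15 replicate 2 or 3 (adjusted p = 0.061 to 0.092). The 4 targets called lower were SLC7A11, CBR3, UGDH and PGD. SLC7A11, the cystine importer that feeds glutathione synthesis, had an FPKM of 4.62, 4.07 and 4.78 in NC and 1.34, 1.20 and 1.19 in siGDF15. It was 3.35-fold lower (log2 fold change -1.75, SE 0.085, adjusted p = 1.4e-06), and it moved in the direction of GCLM rather than of NQO1. The carbonyl reductase CBR3 changed by -1.07, UGDH by -0.33 and PGD by -0.24.

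The partners of NRF2 and of its degradation were spread over both directions. Of 21 tested genes 9 were called higher and 5 lower (42.9% and 23.8%, against 30.0% and 31.4% of all tested genes). The median log2 fold change was -0.01. Without TMM the counts were 4 higher and 9 lower, and 36.6% of the calls over all genes were then higher, against 48.9% with TMM. MAFK, a small MAF partner, was higher (log2 fold change 0.60), while MAFG, another, was lower (-0.15) and was not called when each library was scaled to the same median. BACH1, a repressor that competes for the same sites, was at 0.37, the related factor NFE2L3 at 0.37, and BTRC and GSK3B, which act in the KEAP1-independent degradation of NRF2, at 0.22 and 0.42, all called higher, although BTRC was not called without TMM. In contrast GSK3A, the paralog of GSK3B, was called lower (-0.36), as were CAND1 (-0.25), AMER1 (-0.43) and PGAM5 (-0.40). AMER1 passed the filter of 1 FPKM only through NC, with a mean of 1.25 in NC and 0.861 in siGDF15. DPP3 (-0.01) and PALB2 (-0.13) of the same list were not called.

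Among the genes listed as glutathione enzymes 18 were tested. Called higher were 5 and lower 7 (27.8% and 38.9%, against 30.0% and 31.4% of all tested genes), with a median of -0.11. Without TMM, where 36.6% of the calls over all genes were higher against 48.9% with it, the counts were 4 and 8. The list also holds the transporters SLC7A11, which was called lower, and SLC3A2, which was not called. CHAC1, which breaks down glutathione, had an FPKM of 19.8, 16.7 and 16.3 in NC and 4.42, 3.16 and 4.35 in siGDF15. It was 4.09-fold lower (log2 fold change -2.03, SE 0.13, adjusted p = 5.2e-06). Its relative CHAC2 (-0.80) and GGCT (-0.84), which turns γ-glutamyl amino acids into 5-oxoproline, were lower too, as was the mitochondrial glutaredoxin GLRX2 (-0.35). GGT1, which splits extracellular glutathione, was higher (0.95), together with MGST1 (0.50), GGT7 (0.49), GSTK1 (0.35) and OPLAH (0.34), of which OPLAH was not called without TMM. GGT1 passed the filter of 1 FPKM only through siGDF15, with a mean of 0.933 in NC and 1.69 in siGDF15.

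The list of thioredoxin enzymes held 11 genes, among them the inhibitor TXNIP. Of these genes 7 were called higher and 0 lower by edgeR (63.6% higher, against 30.0% of all tested genes), with a median of 0.29. The counts were the same at an unadjusted p under 0.05 and by DESeq2, but 6 higher and 1 lower without TMM and by limma. In those fits 36.6% of the calls over all genes were higher, against 48.9% in the main fit. TXNIP, the inhibitor of thioredoxin (0.60), and the peroxiredoxins PRDX5 (0.59), PRDX4 (0.51) and PRDX1 (0.35) were higher, and TXNRD3 (0.46) was called higher but not without TMM. Thioredoxin itself, TXN, was not called (-0.04).

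Of 12 heme and quinone partners 10 were called higher and 1 lower (83.3% and 8.33%, against 30.0% and 31.4% of all tested genes). The median was 0.45. Without TMM the counts were 7 and 2, and 36.6% of the calls over all genes were then higher, against 48.9% with TMM. The ferritin heavy chain FTH1, which stores iron with FTL, rose from 956 ± 20.2 to 1520 ± 50.4 FPKM (log2 fold change 0.77, SE 0.045, adjusted p = 3.2e-06). The heme transporter SLC48A1 (0.78), the biliverdin reductase BLVRB (0.71) and the P450 reductase POR (0.61) were higher, and NQO2, the paralog of NQO1, was lower (-0.32). Of 15 autophagy receptors and partners 9 were called higher and 2 lower (60.0% and 13.3%, against 30.0% and 31.4% of all tested genes). The median was 0.20, and without TMM the counts were 5 and 3, beside the same shift over all genes. OPTN, an autophagy receptor like SQSTM1, had an FPKM of 11.3, 11.9 and 10.5 in NC and 18.6, 20.6 and 22.0 in siGDF15 (log2 fold change 0.96, SE 0.074, adjusted p = 1.3e-05). GABARAPL1 (0.78), GABARAPL2 (0.47), TAX1BP1 (0.45) and NBR1 (0.35) were higher, and CALCOCO2 (-0.19) and ATG5 (-0.19) lower, with ATG5 not called when each library was scaled to the same median. Several genes, among them FTL, FTH1, PRDX1, BLVRB and SLC7A11, stand in more than 1 list, so the counts of the lists are not independent. FTL and FTH1 have many near-identical processed pseudogenes, and their levels are uncertain where reads could be divided.

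**Figure D4:**
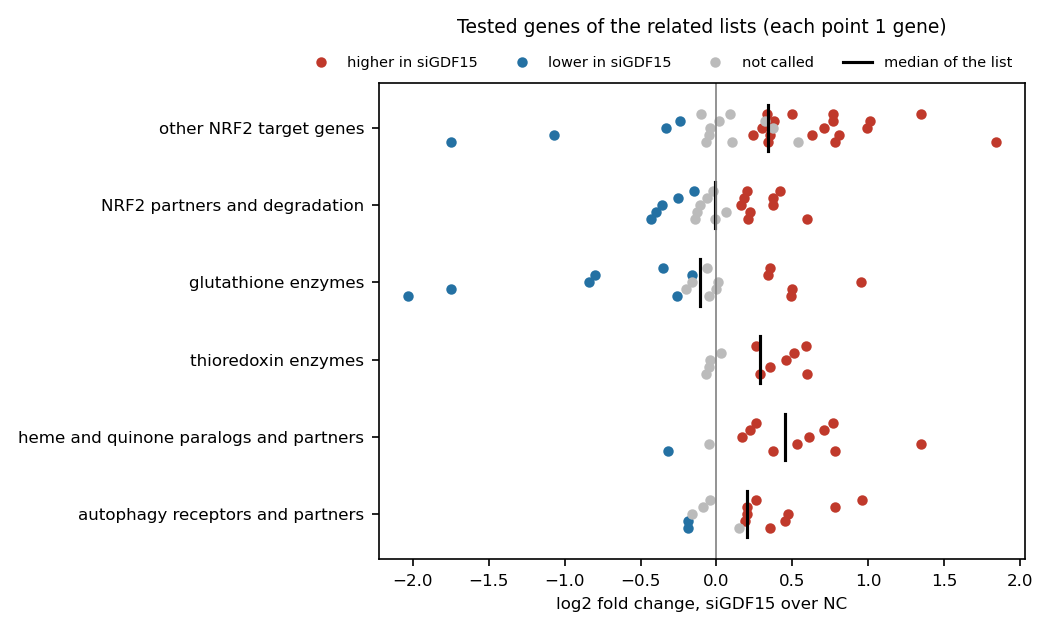
Log2 fold change of siGDF15 over NC (x axis) for the tested genes of 6 related lists (rows), each point 1 gene, red where called higher, blue where called lower and grey where not called, with a black line at the median of the list. The medians run from -0.11 for the glutathione enzymes to 0.45 for the heme and quinone partners, and CHAC1 and SLC7A11 lie farthest to the left.

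For each member the tested gene with the most similar profile over the 6 libraries was found by Pearson's r of log2 CPM. The genes were TAP2 for KEAP1 (r = 0.9995), TMEM178B for NQO1 (0.9994), AP1M2 for HMOX1 (0.9995), HK1 for GCLM (0.9997), CDKN1A for TXNRD1 (0.994), BRIX1 for SRXN1 (0.9985) and CLCN7 for SQSTM1 (0.9997). For NFE2L2 the gene was MMGT1 (0.9963) and for GCLC it was DGKZP1 (0.9926). These are descriptions over 6 libraries that share the difference between the groups, with the best match picked from all tested genes.

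Other genes overlap 6 of the 9 members on the genome, and whether counting used the strand is not given in the sources used here. HNRNPA3, on the opposite strand at the 3′ end of the span listed for NFE2L2, had 439% of the NC count of NFE2L2 and a log2 fold change of -0.63. It shared 0 bases of exon with NFE2L2 in GENCODE 29, but there NFE2L2 begins only at 177227595, against 177218667 in the listed span. GENCODE 29 therefore cannot show what exons the 2 genes share at that end in the annotation that was counted. ENSG00000213963, on the same strand as NFE2L2, had 2.82% of its NC count and 1054 shared exon bases. For SQSTM1 the opposite-strand neighbours MGAT4B (30.8% of its NC count, 105 shared exon bases, log2 fold change 0.44) and MRNIP (6.22%, 1582 bases, 0.18) changed less than SQSTM1 did. RPL18AP3, a ribosomal protein pseudogene inside TXNRD1 on the same strand, had 13.6% of its NC count and a log2 fold change of 0.43. How far these reads enter the members' values was not tested.

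Total counts ranged from 51738814 to 68025163 per library, lowest in siGDF15 replicate 2. Mitochondrially encoded genes took 6.39 to 6.78% of counts in NC and 8.53 to 9.17% in siGDF15, and the TMM factors were 1.03 to 1.04 in NC and 0.958 to 0.972 in siGDF15. Leaving TMM out moved the median log2 fold change of all genes from 0.003 to -0.099, and the share of calls that were higher from 48.9% to 36.6%. Of 7 thyroid markers, PAX8 and FOXE1 were at 1 FPKM or more in every library, TG, NKX2-1, SLC5A5 and DIO2 were under 1 in all, and TSHR had no row. The summed FPKM of the thyroid markers was 57.2 to 68.0 in NC and 80.6 to 83.8 in siGDF15, almost all of it PAX8 (log2 fold change 0.53, adjusted p = 0.00012). The sum of 5 epithelial markers was 102 to 149 and 126 to 136, with CDH1 called higher (adjusted p = 0.049) but 0 of 5 called without TMM or by limma. CDH1 passed the filter of 1 FPKM only through siGDF15, with a mean of 0.897 in NC and 1.28 in siGDF15. The sum of the fibroblast markers was 31.2 to 40.6 and 32.8 to 38.2, with 0 of 6 called by edgeR (0 also at an unadjusted p under 0.05, by DESeq2 and by limma). Of 5 leukocyte markers with a row 4 were under 1 FPKM, and their sum, 17.9 to 19.7 in NC and 16.6 to 18.6 in siGDF15, was almost all CD68, a lysosomal protein of macrophages (17.8, 19.4 and 17.7 in NC and 16.9, 17.9 and 15.9 in siGDF15). Under 1 FPKM were also all 5 endothelial markers, whose sum was 0.207 to 0.285 in NC and 0.418 to 0.52 in siGDF15. The part of these shifts in the members' values was not tested.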

How the data were processed

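Poly(A) RNA of 6 libraries (NC and siGDF15, n = 3 each) was sequenced as stranded read pairs of 150 bases. The submitters' processing notes name fastp, HISAT2, StringTie, edgeR and GRCh38, and the versions, the annotation release and the strand setting are not given in the sources used here. Per gene and library the authors deposited an FPKM, corrected for transcript length and mapped fragments, and an expected count that StringTie estimates from coverage. The deposited expected counts are whole numbers, and 1 read pair was taken as 4 of them, the most frequent value among counts of 1 to 20 (15.6%). All columns of library values were used.

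Expected counts were tested with edgeR 4.0.16 (quasi-likelihood, TMM, mean FPKM of at least 1, two-sided, group as the only term) in R 4.3.3. Standard errors are the fold change over the root of F. Alternatives were other filters and normalizations, DESeq2 1.42.0, limma 3.58.1 on log2 of FPKM plus 1 or 0.1, a replicate block, leaving out each library, and, chosen after seeing the data, counts divided by 4. The edgeR fit was tried on simulated counts with far fewer changed genes than were called here, so that trial does not bear on the scaling. With counts divided by 4, replicates of a group had a chi-square per degree of freedom from 3.25 to 17.4, and no pair was merged. Whether the libraries came from separate cultures rests on the study's statement of biological replicates.

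The members and lists were chosen with earlier results of these data known. Named were all members, up to 5 genes per direction and list with the largest called change, GDF15, the most similar gene of each member, and genes overlapping a member. Marker lists were kept to counts and summed levels. A further marker is not reported here. TXN, PAX8, CDH1 and CD68 were named after their values were seen. Promoter windows came from RefSeq (GRCh38.p14) and exons from GENCODE 29. Python 3.11.15 with scipy 1.17.1 was used for the exact tests and matplotlib 3.10.9 for figures.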

Additional observations from a re-analysis of the deposited data

How the results depend on the processing

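Of the called members, NQO1, HMOX1, SQSTM1, KEAP1, GCLM and SRXN1, kept their direction and call in 16 of 16 alternatives, with log2 fold changes of 0.70 to 0.86, 0.66 to 0.90, 0.63 to 0.79, -0.67 to -0.51, -0.80 to -0.64 and -0.65 to -0.43. Without TMM 5 members were called lower, which adds NFE2L2 (-0.17, adjusted p = 0.012) and GCLC (-0.19, adjusted p = 0.044), and NFE2L2 also passed with limma (-0.16 and -0.17, adjusted p = 0.022 for both pseudocounts). In these fits 36.6% of the calls over all genes were higher, against 48.9% in the main fit. TXNRD1 was not called with a mean FPKM of at least 0.1 (0.19, adjusted p = 0.064), no filter (0.16, 0.18), no TMM (0.11, 0.16), limma (0.11 and 0.12, 0.17) and each siGDF15 library left out. The causes were not tested. Leaving out each library gave 6220 to 7423 called genes, 3 to 4 members higher and 3 lower, and 14 to 19 other targets higher and 4 to 6 lower, and log2 differences of the ratios of 0.47 to 0.53, 0.56 to 0.68 and 0.70 to 0.82. Of 45 genes named from the lists 5 lost their call without some library: GPX2 (without NC replicates 1 or 2 or siGDF15 replicates 2 or 3, adjusted p = 0.061 to 0.092), MAFG (NC 1 or 3, siGDF15 1 or 2, 0.064 to 0.12), TXNRD3 (NC 1 or 3, siGDF15 2 or 3, 0.056 to 0.093), OPLAH (NC 1, siGDF15 2, 0.055 and 0.068) and ATG5 (siGDF15 3, 0.066). Same-numbered libraries did not deviate together (r = 0.0276, -0.0753 and 0.0458), and the fit with a replicate block called 6906 genes in place of 7286, with 4 members higher and 3 lower, and changed no call of a member. The expected counts are not a tally of reads, so their sampling error is not known exactly, and dividing them by 4 gave 7276 calls with 4 members higher and 3 lower.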

Other observations

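The deposited table annotates 40 genes with the KEGG pathway Ferroptosis, iron-dependent death by lipid peroxidation, and GCLC, GCLM and HMOX1 are among them. This set was chosen after its values were seen and is given as a description. Of 30 tested genes 13 were called higher and 9 lower by edgeR, against 30.0% and 31.4% of all tested genes, with a median log2 fold change of 0.09. Without TMM the counts were 11 and 11, and 36.6% of the calls over all genes were then higher, against 48.9% with TMM. Of the 19 in none of the lists used above, 9 were higher and 5 lower with TMM, read against the same 30.0% and 31.4%. GPX4, the peroxidase that removes lipid peroxides with glutathione, rose from 68.0 ± 3.49 to 119 ± 2.27 FPKM (log2 fold change 0.91, SE 0.049, adjusted p = 2.1e-06), while the cystine importer SLC7A11 and GCLM, which supply glutathione synthesis, were lower. SAT1, which acetylates polyamines, rose from 21.2 ± 2.93 to 55.8 ± 1.58 (2.82-fold, adjusted p = 3.3e-06), and its relative SAT2 was higher too (log2 fold change 0.89). ACSL4, which loads polyunsaturated fatty acids for membrane lipids, was at 0.45 (adjusted p = 4.4e-05). Of the iron genes, the ferritin receptor NCOA4 was higher (0.41) and the iron chaperone PCBP1 (-0.36), the reductase STEAP3 (-0.40) and the metal importers SLC39A8 (-0.37) and SLC39A14 (-0.28) were lower, while the metal importer SLC11A2 was higher (0.31). The iron exporter SLC40A1, under the filter and not tested, had an FPKM of 0.664, 0.462 and 0.508 in NC and 1.11, 1.02 and 1.22 in siGDF15. TFRC, the transferrin receptor, was at -0.25 (SE 0.15, adjusted p = 0.17) and was not called.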
